A study of Homo sapiens with 4 samples.

Results

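The genes described here are 36 glycolytic enzymes, glucose and lactate transporters, and genes of the hypoxia-inducible factor (HIF) system. They were chosen by name and role, with earlier results of these data known. Of these, 32 had at least 1 probe set that the array annotation ties to that gene alone, out of 18417 genes with such a probe set. PGAM1, which encodes a phosphoglycerate mutase, was covered only by probe sets that also match PGAM4. SLC16A1 and SLC16A3, which encode lactate transporters, and CA9, which encodes a carbonic anhydrase, were not analysed here. The study asked what the loss of Efp does to endometrial cancer cells. Efp (TRIM25) is an estrogen-responsive ubiquitin ligase. 2 of the groups came from Ishikawa cells, an ERα-positive endometrial cancer line, transfected with siControl or with siEfp. The other 2 came from HEC-1A cells, an ERα-negative endometrial cancer line, transfected in the same way, and each of the 4 groups was measured on 1 array. All cells were established cancer lines transiently transfected in culture, and the array methods of the study describe siEfp #A in Ishikawa cells only. Neither the labels nor the methods give the duplex used for the HEC-1A arrays. The methods describe cultures kept in air with added CO2, and no hypoxic treatment is named for the arrays.

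Glycolysis turns glucose into pyruvate. Glucose transporters bring the sugar in, hexokinases trap it by phosphorylation, phosphofructokinase commits it to breakdown, and lactate dehydrogenase converts the pyruvate to lactate when the sugar is not fully oxidised. HIF is made of an oxygen-sensitive α subunit (HIF-1α or HIF-2α, encoded by HIF1A and EPAS1) and a stable β subunit. Prolyl hydroxylases of the EGLN family mark the α subunits for destruction when oxygen is present. When oxygen is short, or when growth signaling is strong, HIF raises many glycolytic genes together with genes for vessel growth, collagen modification and mitochondrial removal. Many cancers, endometrial cancers included, use glycolysis heavily even with oxygen available.

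The siRNA target followed the labels. TRIM25 had a log2 signal of 9.42 in Ishikawa siControl, 7.96 in Ishikawa siEfp, 9.50 in HEC-1A siControl and 7.93 in HEC-1A siEfp. The signals of all probe sets correlated at 0.992 between the 2 Ishikawa arrays, at 0.993 between the 2 HEC-1A arrays, and at 0.956 to 0.958 between lines. ESR1, the gene for ERα, had signals of 6.91 and 6.65 in Ishikawa cells and of 4.45 and 4.77 in HEC-1A cells. Of 7 epithelial markers, 7 were at or above the median gene signal of 6.31 in Ishikawa cells and 4 in HEC-1A cells. Those 4 were KRT8, KRT18, KRT19 and EPCAM. HEC-1A minus Ishikawa, under siControl and siEfp, EPCAM differed by -3.98 and -4.19 and KRT8 by -1.03 and -1.43. KRT19 differed by -1.25 under both siRNAs, and KRT18 by -0.15 and 0.17. In HEC-1A cells CDH1 was at 4.07 and 3.74 against 10.22 and 9.62 in Ishikawa cells, and VIM at 11.71 and 11.47 against 7.04 and 6.95. Of 6 stromal markers, 2 reached that median on each array, VIM and COL1A1. COL1A1 was lower in HEC-1A cells, at 6.50 and 6.37 against 7.40 and 7.29. PDGFRB, COL1A2, DCN and LUM stayed below the median in both lines. Of 4 endothelial markers, 0 reached that median on any array, and of 5 immune markers only CD68 did, in HEC-1A cells.

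The clearest shared feature of the siEfp arrays in this gene set was a lower signal of HK2 in both lines. SLC2A1 was also lower in both, but inside the range of the middle 95% of all genes. HK1 and SLC2A3, which also act at the entry of glucose into glycolysis, were not lower in both lines. The genes of lower glycolysis differed little, with 4 of 5 at no more than 0.24 from their control on the log2 scale in both lines. GPD1L was lower mainly in Ishikawa cells, BNIP3 was higher in Ishikawa but lower in HEC-1A cells, and EGLN3 was higher mainly in HEC-1A cells. With 1 array per group the differences within a line have no test, and the limma fit over both lines, given further on, called 0 of these genes. In bulk RNA, fewer expressing cells and less RNA per cell cannot be told apart.

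HK2 encodes hexokinase 2, the inducible hexokinase that many tumors use. Its signal was 8.58 in Ishikawa siControl, 7.71 in Ishikawa siEfp, 7.01 in HEC-1A siControl and 6.20 in HEC-1A siEfp. The siEfp array was thus the lower one of each line, and the 2 Ishikawa arrays lay above both HEC-1A arrays. The differences were -0.87 in Ishikawa cells (1.83-fold lower) and -0.81 in HEC-1A cells (1.75-fold lower), and 1.25% and 0.64% of all genes lay further down in those lines. HK1, the hexokinase that most tissues express, differed by 0.10 and 0.08.

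SLC2A1 encodes GLUT1, the glucose transporter of most dividing cells. Its signal was 11.34 in Ishikawa siControl, 10.86 in Ishikawa siEfp, 10.25 in HEC-1A siControl and 9.86 in HEC-1A siEfp. Again both siEfp arrays were below their own control, by 0.48 (Ishikawa) and 0.40 (HEC-1A), which lay inside the range that held the middle 95% of all genes. That range ran from -0.70 to 0.51 in Ishikawa cells and from -0.55 to 0.49 in HEC-1A cells, with medians of 0.01 in each. SLC2A3, the gene for GLUT3, differed by 0.17 and -0.25, at a signal below the median of all genes.

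GPD1L encodes a protein related to glycerol 3-phosphate dehydrogenase, and was the member furthest down in Ishikawa cells. Its signal was 7.35 in Ishikawa siControl, 6.002 in Ishikawa siEfp, 6.44 in HEC-1A siControl and 6.15 in HEC-1A siEfp. The Ishikawa siControl array stood alone at the top, and the other 3 arrays lay between 6.002 and 6.44. The difference was -1.35 (2.55-fold lower) in Ishikawa cells, where 0.22% of all genes lay further down, and -0.29 in HEC-1A cells.

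BNIP3, which encodes a mitochondrial protein that takes part in the removal of mitochondria, had a signal of 9.58 in Ishikawa siControl, 10.25 in Ishikawa siEfp, 9.77 in HEC-1A siControl and 9.47 in HEC-1A siEfp. The Ishikawa siEfp array was the highest of the 4 and the HEC-1A siEfp array the lowest. The differences were 0.67 (1.59-fold higher) and -0.31 (1.24-fold lower). EGLN3, a prolyl hydroxylase that is itself a HIF target, had a signal of 7.59 in Ishikawa siControl, 7.81 in Ishikawa siEfp, 6.71 in HEC-1A siControl and 7.38 in HEC-1A siEfp. Its differences were 0.22 and 0.67, so that both siEfp arrays were above their control, and HEC-1A cells came closer to the level of Ishikawa cells.

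**Figure D1:**
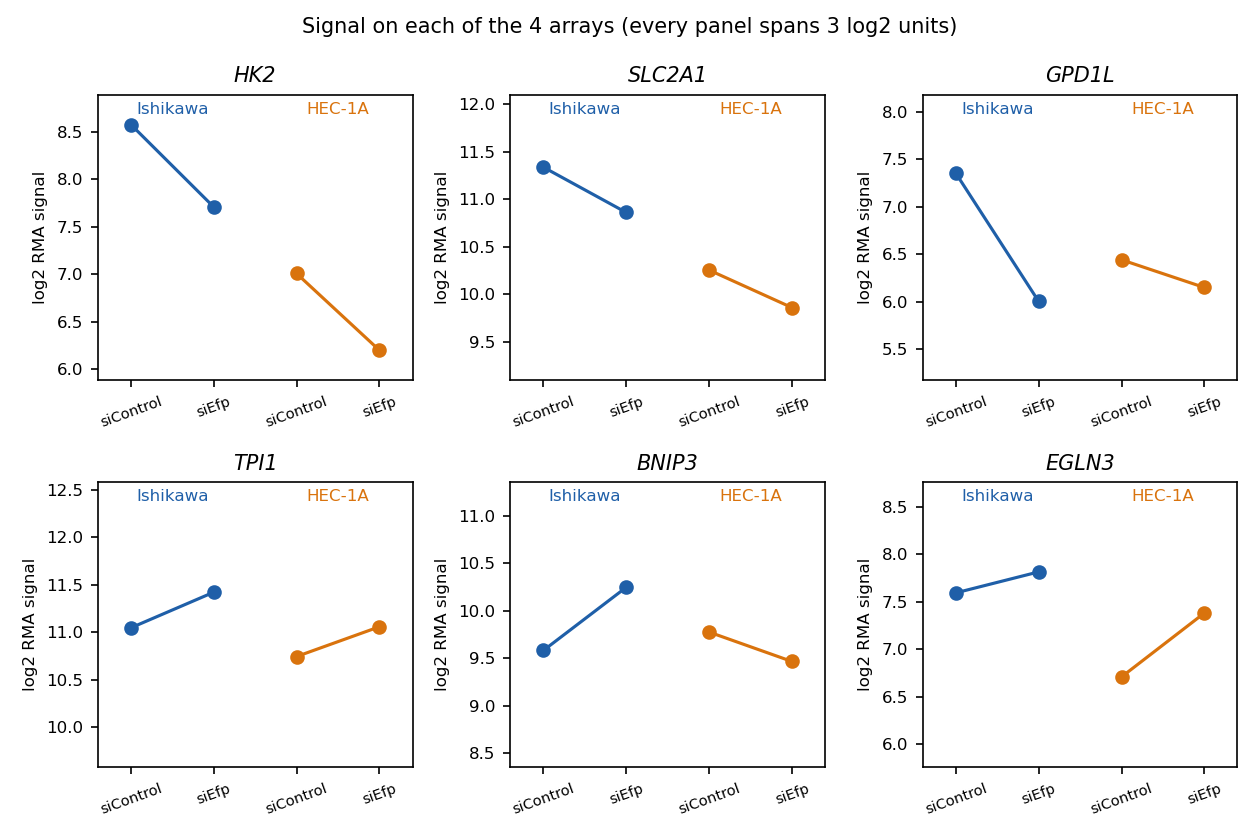
Log2 RMA signal (vertical axis) of 6 members on each of the 4 arrays (horizontal axis), with Ishikawa cells in blue and HEC-1A cells in orange, 1 array per point and a line joining the arrays of 1 cell line. HK2 and SLC2A1 slope down in both lines, TPI1 slopes up in both, GPD1L slopes down mainly in Ishikawa cells, EGLN3 slopes up mainly in HEC-1A cells, and BNIP3 slopes up in Ishikawa but down in HEC-1A cells.

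HIF binds DNA at a short core, ACGTG or GCGTG, so the sequence before the start of these 5 genes is shown, with the core, in either orientation (CACGT and CACGC on the other strand), in capitals. The windows come from RefSeq annotation on GRCh38.p14 and hold the 250 bases before each annotated start, written 5′ to 3′ on the gene's strand. HK2 has a window for each of 2 annotated starts.
HK2, first start, chr2:74833877-74834126, plus strand: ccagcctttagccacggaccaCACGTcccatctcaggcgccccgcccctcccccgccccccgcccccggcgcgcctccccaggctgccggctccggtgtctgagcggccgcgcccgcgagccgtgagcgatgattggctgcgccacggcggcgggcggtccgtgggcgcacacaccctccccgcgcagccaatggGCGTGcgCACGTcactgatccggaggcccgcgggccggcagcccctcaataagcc
HK2, second start, chr2:74834920-74835169, plus strand: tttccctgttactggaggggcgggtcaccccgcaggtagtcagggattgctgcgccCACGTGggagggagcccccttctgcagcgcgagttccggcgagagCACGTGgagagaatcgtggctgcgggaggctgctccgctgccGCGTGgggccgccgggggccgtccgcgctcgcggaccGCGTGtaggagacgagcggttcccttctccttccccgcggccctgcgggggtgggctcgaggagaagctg
SLC2A1, chr1:42958869-42959118, minus strand: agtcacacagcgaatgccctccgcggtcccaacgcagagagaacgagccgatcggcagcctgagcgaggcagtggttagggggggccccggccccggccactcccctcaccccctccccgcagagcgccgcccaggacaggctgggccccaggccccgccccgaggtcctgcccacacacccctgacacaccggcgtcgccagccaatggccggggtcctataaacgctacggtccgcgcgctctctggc
GPD1L, chr3:32106370-32106619, plus strand: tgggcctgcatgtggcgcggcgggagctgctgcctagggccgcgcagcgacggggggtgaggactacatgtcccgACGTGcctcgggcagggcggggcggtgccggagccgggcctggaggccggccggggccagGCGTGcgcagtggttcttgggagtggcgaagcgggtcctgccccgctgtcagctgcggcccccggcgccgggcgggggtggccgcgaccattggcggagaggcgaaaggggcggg
BNIP3, chr10:131981924-131982173, minus strand: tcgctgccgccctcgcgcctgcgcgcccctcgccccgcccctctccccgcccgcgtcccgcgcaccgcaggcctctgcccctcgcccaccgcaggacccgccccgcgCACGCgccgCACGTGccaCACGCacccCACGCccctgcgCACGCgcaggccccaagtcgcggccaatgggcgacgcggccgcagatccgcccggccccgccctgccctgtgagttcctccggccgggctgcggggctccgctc
EGLN3, chr14:33951075-33951324, minus strand: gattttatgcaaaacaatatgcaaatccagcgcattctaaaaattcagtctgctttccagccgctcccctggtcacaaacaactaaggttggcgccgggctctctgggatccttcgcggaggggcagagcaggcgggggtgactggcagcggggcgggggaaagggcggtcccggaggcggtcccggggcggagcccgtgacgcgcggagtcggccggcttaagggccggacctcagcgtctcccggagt
The core appears 3 times before the first start of HK2 and 6 times before the second. Of those 6, 4 come from 2 copies of the palindrome CACGTG, the E-box to which MYC and USF factors bind, since each copy holds ACGTG on both strands. GPD1L has 2 matches. BNIP3 has 6 that begin between 143 and 104 bases before the start, and 1 copy of CACGTG gives 2 of them. SLC2A1 has 0 in the stretch shown and 1 in the 50 bases after the start, and EGLN3 has 0 in both.

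Over the whole set, a window of 250 bases before to 50 after a start was found for 31 of the 36 genes, and 29 of the 31 (93.5%) hold the core in at least 1 window. Among all 27305 genes with windows the share was 52.4%. The members were listed partly because they are HIF targets, so their share is not independent of how they were chosen. Genes with several starts have more chances, so genes with 1 window were also compared. There the core was found in 19 of 21 members (90.5%), against 56.4% of 10501 such genes that were measured on the arrays. The 21 include PGAM1 and CA9, which were not among the measured genes. The members' windows were also richer in G and C, with a median GC content of 69.7% against 63.3%, and the core contains a CG. The part of base composition in the share was not tested. The E-box CACGTG was found in 8 of 31 members (25.8%) and in 8.77% of all genes, and among genes with 1 window in 4 of 21 members (19.0%) and in 8.81% of those measured. A match in a window is not evidence of binding.

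The other enzymes of upper glycolysis showed small differences of both signs. TPI1, triosephosphate isomerase, had a signal of 11.04 in Ishikawa siControl, 11.42 in Ishikawa siEfp, 10.74 in HEC-1A siControl and 11.06 in HEC-1A siEfp. It was the glycolytic enzyme gene furthest up in Ishikawa cells, by 0.38, and was up by 0.31 in HEC-1A cells. Its 2 probe sets agreed in sign, with 0.41 and 0.38 for the first and 0.34 and 0.25 for the second. PFKM, the muscle-type phosphofructokinase, had a signal of 8.13 in Ishikawa siControl, 7.63 in Ishikawa siEfp, 9.20 in HEC-1A siControl and 8.99 in HEC-1A siEfp. It was 0.50 lower with siEfp in Ishikawa and 0.22 lower in HEC-1A cells. The liver-type enzyme, PFKL, differed by 0.08 and 0.15, and the platelet-type enzyme, PFKP, by -0.09 and -0.22. Of the aldolases, ALDOC differed by -0.42 and -0.25, and ALDOA by 0.24 and 0.06. Phosphoglucose isomerase, GPI, differed by 0.18 and 0.04. All 9 genes of upper glycolysis, HK1 and HK2 included, had the same sign in both lines, 4 lower and 5 higher. Of all genes, 26.7% were lower in both lines and 31.1% higher in both, and several of the 9 differed little.

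The PFKFB genes encode the enzymes that make and break down fructose 2,6-bisphosphate, the activator of phosphofructokinase. PFKFB3 had a signal of 7.36 in Ishikawa siControl, 7.10 in Ishikawa siEfp, 8.63 in HEC-1A siControl and 8.32 in HEC-1A siEfp. It was lower with siEfp by 0.26 and 0.31, while PFKFB4 was lower by 0.36 and 0.07. PFKFB2 differed by 0.16 and -0.20, with opposite signs in the 2 lines.

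The genes of lower glycolysis were bright on all arrays and, apart from ENO2, nearly flat. PKM, pyruvate kinase, had a signal of 12.20 in Ishikawa siControl, 12.12 in Ishikawa siEfp, 12.17 in HEC-1A siControl and 12.19 in HEC-1A siEfp. The 4 arrays lay within 0.08 of each other. GAPDH differed by 0.09 and -0.00, PGK1, phosphoglycerate kinase, by -0.03 and -0.13, and ENO1, the main enolase, by 0.24 and 0.22. ENO2, the neuronal enolase, had 7.49 in Ishikawa siControl, 7.34 in Ishikawa siEfp, 6.81 in HEC-1A siControl and 7.35 in HEC-1A siEfp. Its differences were -0.15 and 0.53, and the HEC-1A siControl array was the lowest. LDHA, the lactate dehydrogenase subunit that favors lactate formation, had 11.81, 11.77, 11.89 and 11.72 in the same order, and differed by -0.04 and -0.17. LDHB, the subunit that favors pyruvate, differed by -0.23 and -0.10. GAPDH, ENO1, TPI1, PGK1, PKM and the lactate dehydrogenase genes have near-identical pseudogene copies, and their signals may include RNA from copies.

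In the HIF system itself, HIF1A had a signal of 11.29 in Ishikawa siControl, 11.05 in Ishikawa siEfp, 10.95 in HEC-1A siControl and 10.65 in HEC-1A siEfp. It was lower with siEfp by 0.25 and 0.30. EPAS1 went the other way, with 7.90, 8.20, 9.46 and 9.68 in the same order, and was higher by 0.30 and 0.21. EGLN1, the main oxygen-sensing hydroxylase, differed by 0.29 and -0.11. HIF-α proteins are set largely by degradation, which mRNA levels do not show.

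The remaining HIF targets did not move together. VEGFA, the vessel growth factor, had a signal of 9.26 in Ishikawa siControl, 9.42 in Ishikawa siEfp, 8.83 in HEC-1A siControl and 8.88 in HEC-1A siEfp, differences of 0.16 and 0.05. ADM, the vasodilator peptide adrenomedullin, differed by -0.09 and 0.08. NDRG1, a stress-response gene, differed by 0.18 and -0.12, ANKRD37 by -0.19 and 0.23, and P4HA1, a collagen prolyl hydroxylase subunit, by -0.03 and 0.18. With BNIP3, 5 of these 6 genes had opposite signs in the 2 lines, where 7705 of all 18417 genes did. Apart from BNIP3, these differences were at most 0.23 in size. The sign of P4HA1 in Ishikawa cells turned after a second quantile normalization.

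**Figure D2:**
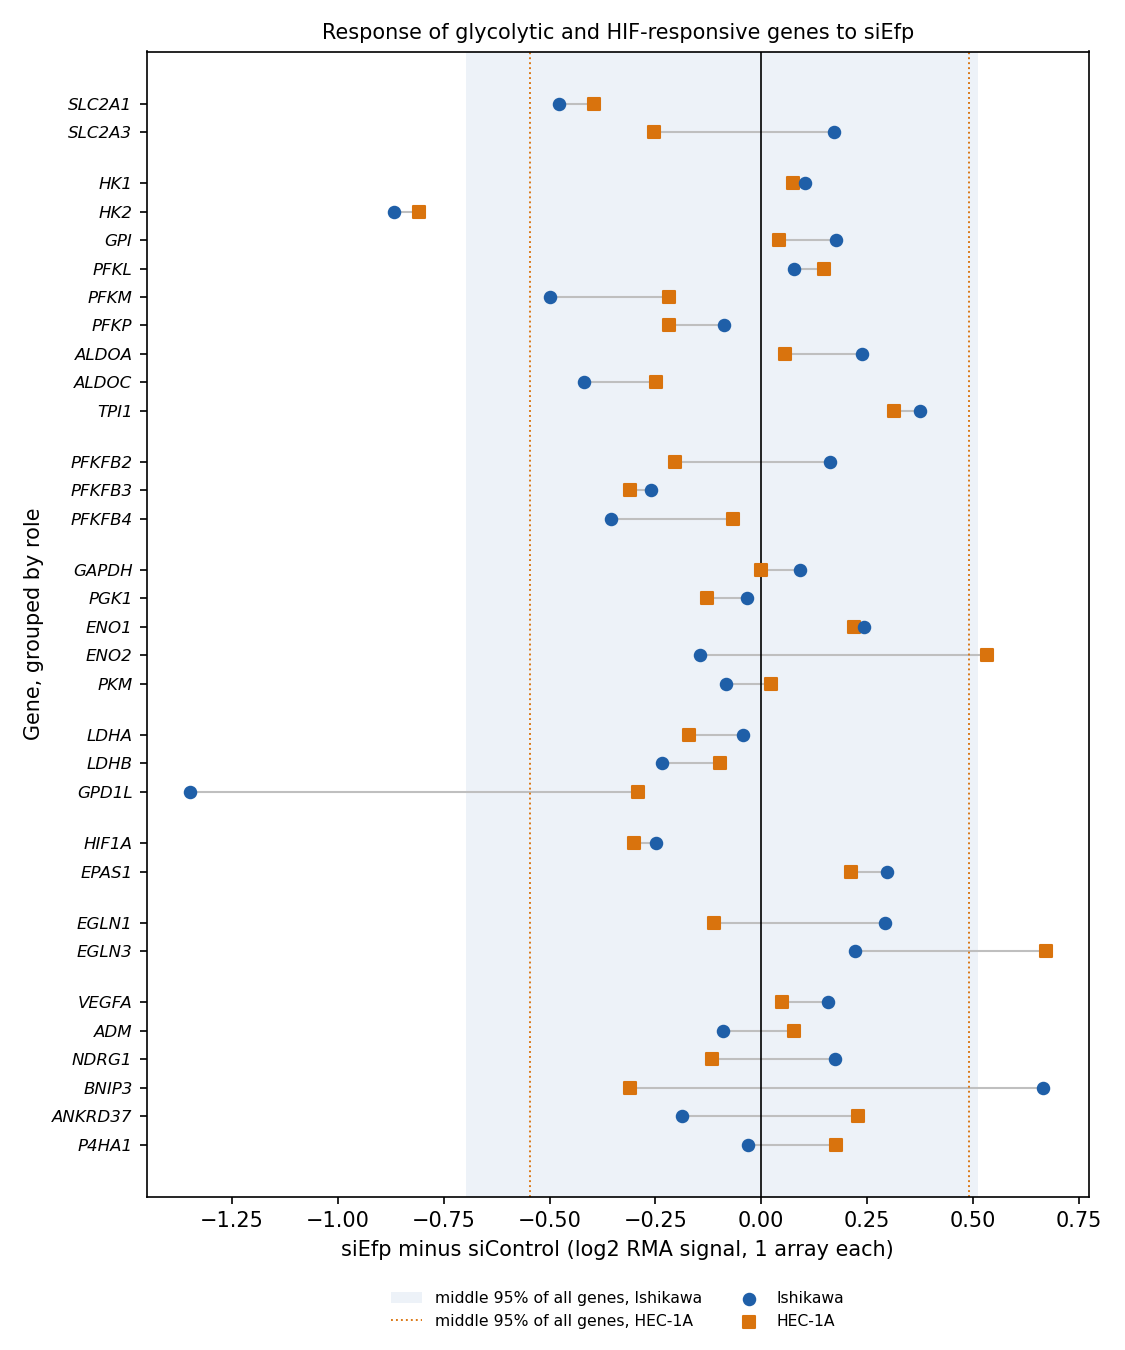
Difference siEfp minus siControl in log2 RMA signal (horizontal axis) for the 32 measured members (vertical axis, grouped by role) in Ishikawa cells (blue circles) and HEC-1A cells (orange squares), 1 array per condition. The shaded band and the dotted lines mark the middle 95% of all 18417 genes for each line, and HK2 is the one gene below it in both lines.

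Counted by size, 1 of the 32 members differed at least 2-fold in Ishikawa cells, GPD1L, where 173 of all 18417 genes did (0.939%). In HEC-1A cells 0 members did, where 69 genes did (0.375%). At 1.5-fold, 3 members passed in Ishikawa cells (HK2, GPD1L and BNIP3), against 5.21% of all genes, and 2 in HEC-1A cells (HK2 and EGLN3), against 3.37%. By sign, 17 members were lower and 15 higher in Ishikawa cells, with a median of -0.03, and 18 were lower and 14 higher in HEC-1A cells, with a median of -0.08. The medians of all genes were 0.01 in each line. A total of 12 members (37.5%) were lower in both lines and 9 (28.1%) higher in both, against 26.7% and 31.1% of all genes. The median of these 32 members thus lay close to that of all genes, and the differences described above were those of single genes. The study's own gene set enrichment analysis listed a hypoxia set as downregulated by siEfp #A in Ishikawa cells. Its genes and its measure differ from those used here, and that set was not tested.

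**Figure D3:**
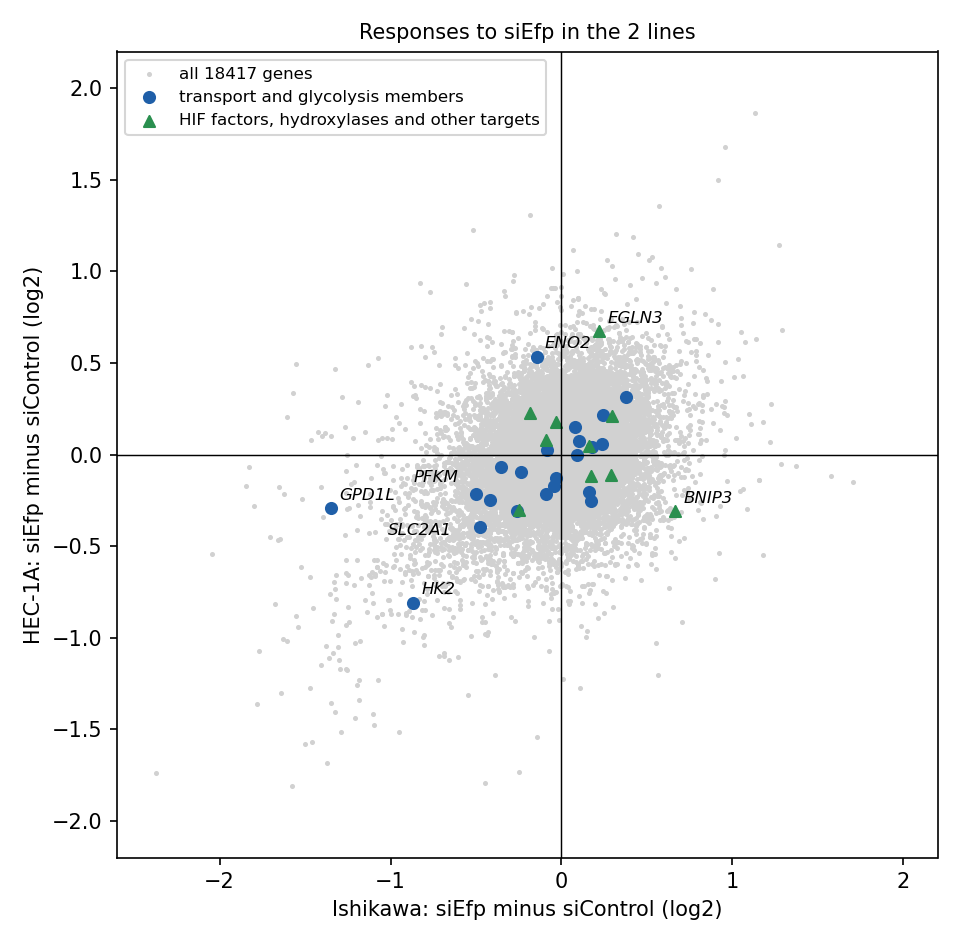
Difference siEfp minus siControl (log2) in Ishikawa cells (horizontal axis) against HEC-1A cells (vertical axis), with all 18417 genes in grey, transport and glycolysis members as blue circles and HIF factors, hydroxylases and other HIF targets as green triangles. HK2 lies at -0.87 and -0.81, GPD1L at -1.35 and -0.29, and BNIP3 at 0.67 and -0.31, and most other members lie in the central cloud.

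The only replication of the siRNA effect is across the 2 lines. In a limma fit of all 4 arrays with the line as a block (1 residual degree of freedom, 1 effect assumed for both lines), 0 members passed an adjusted p of 0.05 (Benjamini-Hochberg over all genes), where 30 of 18417 genes did (0.163%). At an unadjusted p under 0.05 there were 7 members, HK2, SLC2A1, GPD1L, EGLN3, TPI1, PFKM and ALDOC (21.9%), where 2205 of all genes were (12.0%). The members were chosen with earlier results of these data known, so this share may not be independent of that choice. The estimate for HK2 was -0.84 ± 0.12 (SE, 4 arrays), with a limma adjusted p of 0.0784, which ranged from 0.00230 to 1.0 over the alternative settings. The upper end came from the fit without the block, which leaves the line difference in the residual. SLC2A1 had -0.44 ± 0.12 and a limma adjusted p of 0.240, and GPD1L -0.82 ± 0.24 and a limma adjusted p of 0.260. EGLN3 had 0.45 ± 0.15 and a limma adjusted p of 0.325. Without genes below the median signal, HK2 and GPD1L passed, with limma adjusted p of 0.00230 and 0.0292, where 615 of 9209 genes passed. With an intensity trend HK2 passed at a limma adjusted p of 0.0370, where 182 of 18417 genes passed.

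The lines differed from each other more than the siRNA groups did. HK2 and SLC2A1 were lower in HEC-1A than in Ishikawa cells, and EPAS1, PFKFB3 and PFKM were higher, each at least 2-fold under both siRNAs. These 5 of 32 members (15.6%) stand beside 9.53% of all genes. HK2 was 2.97-fold lower in HEC-1A cells with siControl and 2.85-fold lower with siEfp, and SLC2A1 2.12-fold and 2.003-fold lower. EPAS1 was 2.95-fold and 2.78-fold higher, PFKFB3 2.41-fold and 2.33-fold higher, and PFKM 2.10-fold and 2.55-fold higher. For each of these genes both arrays of 1 line lay above both arrays of the other. The line difference in HK2 (-1.57 and -1.51) exceeded its siEfp difference (-0.87 and -0.81) in size, so HK2 in siEfp-treated Ishikawa cells, at 7.71, was still above HK2 in control HEC-1A cells, at 7.01.

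Limma with the siRNA as a block had 1 residual degree of freedom and assumed the same line difference under both siRNAs. Each line had 1 array per siRNA, so the SEs do not measure the spread between cultures of a line. In this fit 8 members (25.0%) were lower in HEC-1A cells, where 17.0% of all genes were, and 6 (18.8%) were higher, where 18.3% were. The 8 lower genes were SLC2A1, HK1, HK2, GPI, PFKFB2, EGLN3, VEGFA and ANKRD37, and the 6 higher genes were PFKM, ALDOC, PFKFB3, EPAS1, NDRG1 and P4HA1. The estimates were -1.54 ± 0.12 for HK2 (SE, limma adjusted p = 0.000174), 1.52 ± 0.12 for EPAS1 (limma adjusted p = 0.000188) and -1.04 ± 0.12 for SLC2A1 (limma adjusted p = 0.000943). PFKFB3 had 1.24 ± 0.12 (limma adjusted p = 0.00043), PFKM 1.21 ± 0.13 (limma adjusted p = 0.00073), NDRG1 1.11 ± 0.13 (limma adjusted p = 0.00107) and P4HA1 0.94 ± 0.13 (limma adjusted p = 0.00179). NDRG1 and P4HA1 were each past 2-fold under 1 siRNA, with differences of 1.25 and 0.96 for NDRG1 and of 0.83 and 1.04 for P4HA1. The smallest called differences were in GPI (-0.46) and ALDOC (0.47). EGLN3 and ALDOC lost the call without the block, with limma adjusted p of 0.0896 and 0.115, and ANKRD37 lost it after a second quantile normalization (limma adjusted p = 0.0652).

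Either way, 14 members (43.8%) were called between the lines, where 35.2% of all genes were, and the roles hold too few genes to be set against each other. Among upper glycolysis genes, HK1, HK2 and GPI were lower in HEC-1A cells and PFKM and ALDOC higher, while PFKL and PFKP did not pass the test, with limma estimates of -0.18 and 0.04. Of the fructose 2,6-bisphosphate enzymes, PFKFB2 was lower (-0.62) and PFKFB3 higher. Of the 5 measured genes of lower glycolysis and the 3 of lactate and glycerol 3-phosphate metabolism, 0 passed the limma test, and 0 were at an unadjusted p under 0.05. GAPDH, PGK1, ENO1, PKM, LDHA and LDHB had limma estimates between -0.11 and 0.16. HIF1A was 0.35 and 0.40 lower in HEC-1A cells without passing (limma adjusted p = 0.0535), opposite in sign to EPAS1. It passed with an intensity trend, after a second quantile normalization and without dim genes, at limma adjusted p of 0.00775, 0.0461 and 0.0201. TPI1 (limma adjusted p = 0.0770) passed with the trend, at 0.0125, and without dim genes, at 0.0338. The epithelial markers and VIM that differ between the lines move with all of these differences, and their part was not tested. Cell line and everything that differs between the 2 cultures cannot be told apart.

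**Figure D4:**
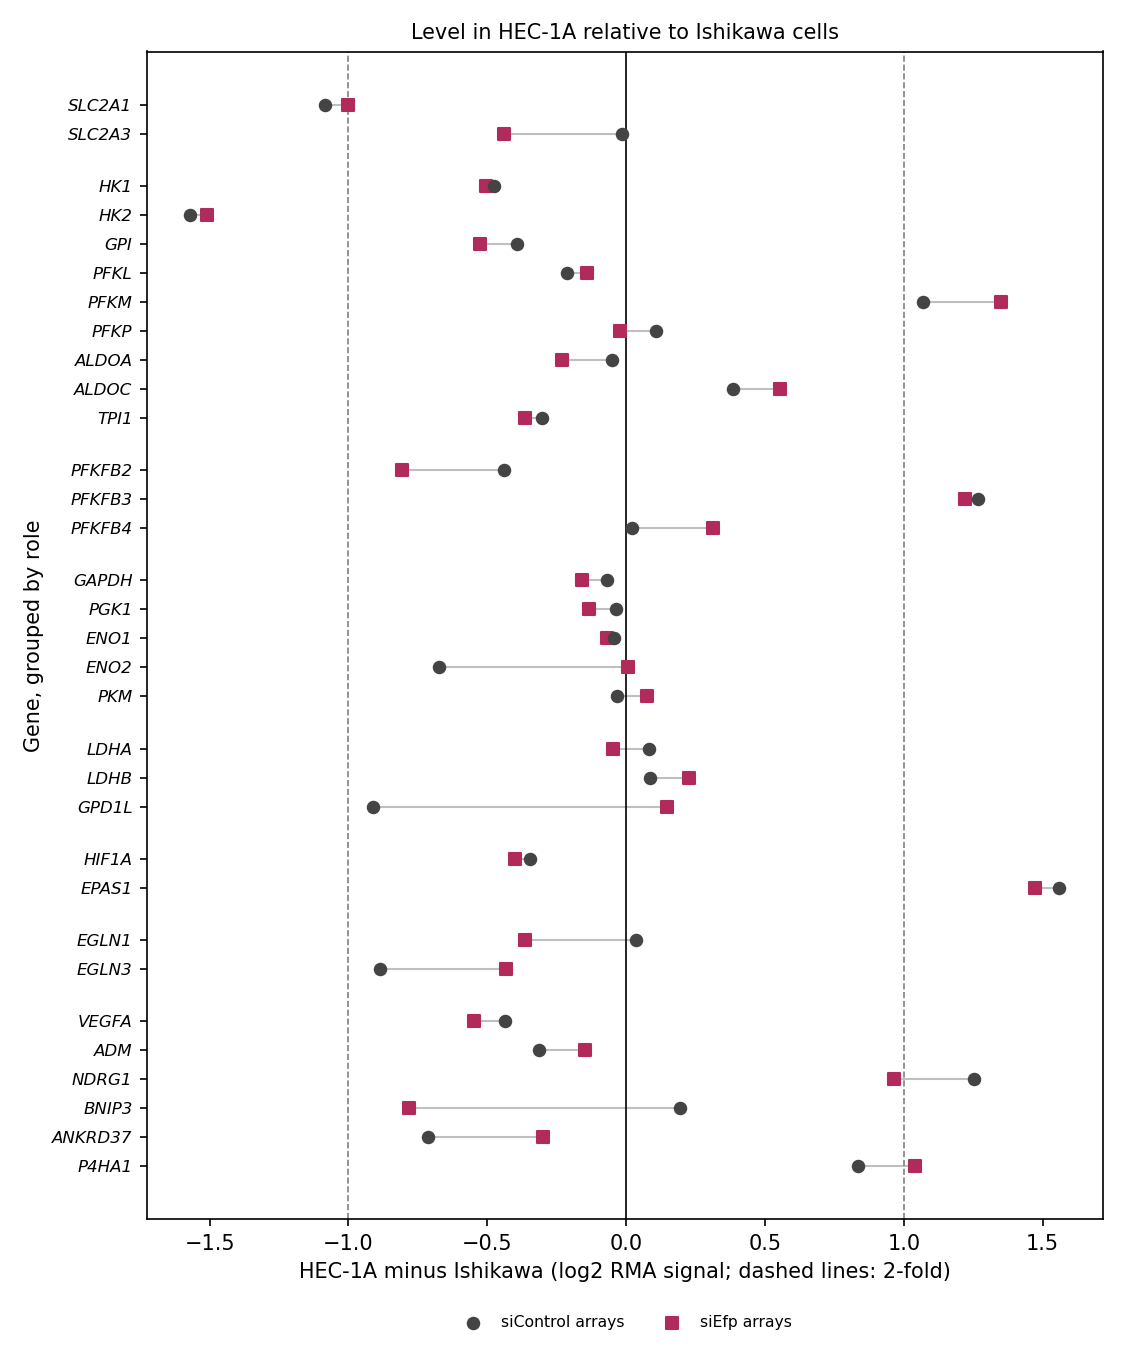
Difference HEC-1A minus Ishikawa in log2 RMA signal (horizontal axis) for the 32 measured members (vertical axis, grouped by role) between the siControl arrays (grey circles) and between the siEfp arrays (red squares), with dashed lines at 2-fold. SLC2A1 and HK2 lie at or past 2-fold on the left and PFKM, PFKFB3 and EPAS1 past 2-fold on the right for both siRNAs, while GAPDH, PGK1, ENO1, PKM and LDHA lie near 0.

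The pathway around these members was followed in 113 further genes from 6 lists (other isozymes and glycogen or glycerol branches, pentose phosphate enzymes, pyruvate entry to mitochondria, other transporters, HIF regulators and other HIF targets), of which 104 were measured. For the siRNA effect 0 of 104 passed the limma test, and 11 (10.6%) were at an unadjusted p under 0.05, below the 12.0% of all genes. By size, PGM1 and UGP2, which lead glucose phosphate towards glycogen, had lower signals with siEfp in both lines. PGM1, phosphoglucomutase, had 8.33 in Ishikawa siControl, 7.59 in Ishikawa siEfp, 8.11 in HEC-1A siControl and 7.45 in HEC-1A siEfp, differences of -0.74 and -0.66. UGP2, which makes UDP-glucose, had 7.59, 6.48, 7.31 and 6.67 in the same order, differences of -1.11 and -0.64. Their limma adjusted p were 0.111 and 0.110. Other genes of the glycogen branch differed less. GYS1, glycogen synthase, differed by 0.12 and 0.09, GBE1 by -0.07 and -0.03, and PGM2 by -0.18 and -0.17. The glycogen phosphorylase genes PYGL and PYGB differed by -0.33 and -0.26 and by -0.10 and -0.22. ENO3, the muscle enolase, differed by -0.61 and -0.18, and HILPDA, a HIF target of lipid droplets, by -0.67 and -0.10. CA12, a carbonic anhydrase, differed by -1.39 in Ishikawa cells and 0.12 in HEC-1A cells. SLC16A7, a monocarboxylate transporter, differed by 0.81 and -0.26. The median differences of the 104 genes were -0.03 in Ishikawa and -0.01 in HEC-1A cells.

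Between the lines, 20 of the 104 genes were lower in HEC-1A cells and 18 higher by limma, in the background of 17.0% and 18.3% given above. Of 6 pentose phosphate genes 3 were lower and 0 higher, among them TKT, transketolase (-1.10 and -1.36 under siControl and siEfp). Of 7 genes of pyruvate entry 4 were lower and 0 higher, among them MPC1, a subunit of the mitochondrial pyruvate carrier (-1.64 and -1.58), and PDK3, a kinase that blocks pyruvate dehydrogenase (-1.50 and -1.85). Of 27 isozyme and branch genes 4 were lower and 4 higher. FBP1, which runs the phosphofructokinase step backwards, was lower (-1.78 and -1.62), as was GPD2, the mitochondrial glycerol 3-phosphate dehydrogenase (-1.81 and -1.48). PYGL, the liver glycogen phosphorylase (2.38 and 2.44), and HKDC1, a further hexokinase (2.59 and 3.35), were higher.

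Of 14 transporters 1 was lower in HEC-1A cells by limma and 3 higher, with the widest gaps in SLC2A12 (-3.71 and -4.35) and SLC16A4 (3.07 and 2.33). Of 12 HIF regulators 2 were lower and 1 higher. ARNT2, a relative of the HIF β subunit, had 8.41 and 7.99 in Ishikawa cells against 4.36 and 4.79 in HEC-1A cells, and CITED2, which competes with HIF for its coactivator, was higher (2.07 and 1.99). Of 38 other HIF targets 6 were lower and 10 higher. LOX, an enzyme that cross-links collagen (-2.28 and -2.34), STC2 (-1.44 and -1.23) and ERO1A, an oxidase of protein folding (-1.27 and -1.28), were lower. LOXL2, a relative of LOX (3.49 and 3.18), ANGPTL4, a regulator of lipoprotein lipase (2.95 and 3.18), and HMOX1, heme oxygenase (2.42 and 2.55), were higher. HIF targets were thus found on both sides of the line difference, as they were among the members.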

How the data were processed

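RNA of Ishikawa and HEC-1A cells given siControl or siEfp was labelled (150 ng of total RNA per the labels) and hybridised to 1 Affymetrix array per group. The authors deposited log2 signals of probe sets. The submitters' processing notes name RMA and Affymetrix Expression Console, and give neither versions nor a build here. RMA subtracts background, forces the arrays to a common distribution and combines probes, so that global shifts are lost and dim probe sets appear less different than they are. The methods name the Exon 1.0 ST array, but the annotation that fits these probe sets is that of the Gene 1.0 ST array.

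Of 33297 probe sets, 19460 had 1 gene symbol, 1754 several and 12083 none. Those with 1 symbol were averaged per gene, and 769 genes had more than 1. The number of arrays limits the precision, since differences within a line have 1 array per condition and no test. Genes were counted at 2-fold or 1.5-fold. The fit was made in limma 3.58.1 (R 4.3.3) on all 18417 genes and 4 arrays with cell line and siRNA as terms. It had 1 residual degree of freedom and 5.54 prior degrees of freedom (SE in the text), and calls were made at an adjusted p of 0.05 (Benjamini-Hochberg). Simulated data with the same change in both lines and noise drawn from the prior served only to check that the fit returned that change. They do not cover responses that differ between the lines. Whether each array is a separate culture is not stated. Promoter windows were RefSeq sequences (GRCh38.p14) from 250 bases before to 50 after each start, searched on both strands for ACGTG and GCGTG, with CACGTG overlapping ACGTG. Python 3.11.15 with numpy 2.4.6 and pandas 2.3.3 was used.

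The members and the pathway lists were chosen with earlier results of these data known. Values on every array were given for members past 1.5-fold in either line or past 2-fold between the lines under both siRNAs, and for at least 1 member of each role. Other members are given by their differences. Pathway genes past the same limits were named, up to 6 in each direction of a list. Alternatives were the brightest probe set, centring, a repeated quantile normalization, the removal of genes under the median signal, other thresholds, no block and an intensity trend.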

Additional observations from a re-analysis of the deposited data

Results flagged for a closer look

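The responses of 3 genes had opposite signs in the 2 lines and were at least 1.5-fold in 1 of them. With 1 array per group, the difference of the responses was not tested. For BNIP3 the response in HEC-1A cells minus that in Ishikawa cells was -0.97 on the log2 scale, from a response of 0.67 in Ishikawa cells and of -0.31 in HEC-1A cells. For SLC16A7, a monocarboxylate transporter with signals of 3.48 to 4.28 on the 4 arrays, all below the median gene signal of 6.31, it was -1.07, from 0.81 and -0.26. For CA12, a carbonic anhydrase and HIF target, it was 1.504, from -1.39 and 0.12.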

How the results depend on the processing

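At a 1.5-fold limit in place of 2-fold, 3 members passed in Ishikawa cells and 2 in HEC-1A cells, in place of 1 and 0. For the siRNA effect over both lines, where 0 members passed, 1 passed in limma with an intensity trend and 1 at an adjusted p of 0.1 (HK2 in both), and 2 passed without genes below the median signal (HK2 and GPD1L). Over all genes these limma calls were 30, and 44 after a second quantile normalization, 182 with the trend and 615 of 9209 without dim genes. The cause of these changes was not tested. Without the block there were 0 calls, in a fit that leaves the line difference in the residual. The count of members called between the lines was 14 and ranged from 12 to 16, and the count past 2-fold under both siRNAs was 5 and ranged from 5 to 7. The median difference of the members ranged from -0.04 to -0.01 in Ishikawa and from -0.10 to -0.08 in HEC-1A cells. Of 192 recomputed differences of single members, 0 moved past the spread of genes of like signal and 2 changed sign, the larger of them 0.03 in size. Most of the 192 could hardly move, so the count says little. Among the measured members only TPI1 has more than 1 probe set, and centring shifts every gene of a line by the same 0.01. No array could be left out, since the fit has 1 residual degree of freedom. No paired analysis was possible because each group has 1 array, beyond the block by cell line above.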

Other observations

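PGAM1 has 5 probe sets, each shared with PGAM4, so no value was given to either gene. The 5 differed by 0.15 to 0.17 in Ishikawa cells and by -0.02 to 0.06 in HEC-1A cells (siEfp minus siControl, log2). Between the lines they were lower in HEC-1A cells, by -0.42 to -0.30 with siControl and by -0.52 to -0.49 with siEfp.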
